A study of Mus musculus with 8 samples.

Results

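The nucleolus is where ribosomal RNA is transcribed, trimmed and modified, and 10 mouse genes of that work were followed here through all 8 deposited count tables. The genes were chosen by name, as 10 of the 27710 genes counted, and all 10 were found and passed the low-count filter. Polr1a and Polr1b encode the largest subunits of RNA polymerase I, and Ubtf and Rrn3 encode its initiation factors. Npm1 and Ncl encode abundant nucleolar proteins, Fbl, Nop56 and Nop58 encode core proteins of the box C/D small nucleolar ribonucleoprotein (snoRNP), and Dkc1 encodes the catalytic core of the box H/ACA snoRNP.

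The cells were lineage-depleted mouse bone marrow, that is, marrow from which mature blood cells had been removed, cultured with cytokines that included 50 ng/mL SCF, 50 ng/mL Flt3L and 10 ng/mL IL3. The Alkbh5-deficient group had the genotype Vav-iCre+; Alkbh5fl/fl and is set against wild-type (WT) cells. Vav-iCre is a recombinase active in blood cells, so cells of other kinds in these cultures would keep Alkbh5, which encodes an RNA demethylase acting on N6-methyladenosine. Feeding was with 100 µM 4-thiouridine (s4U), a uridine analogue that cells build into new RNA, over 2 h. Each genotype has 3 fed libraries and 1 from cells given no agent, called unlabelled here. All 8 libraries, the unlabelled ones included, are of total RNA prepared for TimeLapse-seq, a chemistry that recodes s4U so that RNA made during feeding can be told from older RNA. Only gene counts were analysed here, so each value is a total RNA level and not a rate of synthesis or decay. Since the labels do not say whether replicates are separate animals or cultures, p-values measure only the spread between these samples.

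RNA polymerase I makes a long precursor from the repeated ribosomal DNA. UBTF occupies that DNA and keeps it open, and RRN3 joins the polymerase to the promoter-bound factors so that transcription can start. As the precursor emerges, box C/D snoRNPs methylate riboses and box H/ACA snoRNPs convert uridines to pseudouridines at sites chosen by the guide RNA inside each particle, while nucleolin and nucleophosmin accompany the maturing subunits. Proliferating blood progenitors depend on this pathway, and nucleoside analogues are known to disturb it.

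Gene counts per library totalled between 5723245 and 8615997. Alkbh5 had 0, 1 and 1 counts in Alkbh5-deficient fed libraries and 1 count in the unlabelled one, against 1166, 1479 and 1061 counts in WT fed libraries and 1263 counts in the unlabelled one, as a check of the labels. Several libraries stood apart. WT fed replicate 3 had 17.7% of its gene counts in Gm26917 and Gm42418, which overlap ribosomal repeats, against 8.29% to 10.5% in the other libraries. Reads in no gene made up 37.6% of counts in Alkbh5-deficient fed replicate 1 and 38.3% in WT fed replicate 1, against 48.9% to 52.1% elsewhere. Both unlabelled libraries held the female RNA Xist, at 8770 counts in the Alkbh5-deficient and 9147 counts in the WT library, and the Y-linked RNA Ddx3y, at 511 and 299 counts, whereas in every fed library 1 of the 2 RNAs had at most 2 counts. The effect of feeding and a difference in the source or pooling of the cells cannot be told apart.

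The 10 genes spanned a wide range of levels, which were compared as counts scaled to library size (CPM) and divided by the length in kilobases of all annotated exons. Npm1 was highest at 404 ± 60.1 CPM per kb in Alkbh5-deficient fed libraries and 399.6 ± 57.1 CPM per kb in WT fed libraries (SD, n = 3 each). Ncl came next at 285 ± 40.4 CPM per kb in Alkbh5-deficient and 311 ± 43.5 CPM per kb in WT fed libraries, and its range met that of Npm1 in neither genotype. A middle group followed, led in Alkbh5-deficient fed libraries by Nop56 with 57.9 ± 5.35 CPM per kb, then Fbl with 52.8 ± 4.20, Ubtf with 41.6 ± 1.73 and Dkc1 with 29.3 ± 4.71 CPM per kb. In WT fed libraries Fbl had 66.0 ± 13.5, Nop56 had 61.3 ± 6.27, Ubtf had 49.7 ± 8.59 and Dkc1 had 30.9 ± 4.35 CPM per kb. Fbl and Nop56 overlapped in both genotypes, so their order is not resolved. The lowest levels belonged to Nop58, Rrn3 and the polymerase subunits. Nop58 had 15.2 ± 4.03 and Rrn3 12.5 ± 1.04 CPM per kb in Alkbh5-deficient fed libraries, against 14.0 ± 4.16 and 12.5 ± 1.69 CPM per kb in WT fed libraries. Polr1a had 10.6 ± 0.85 and Polr1b 7.47 ± 0.47 CPM per kb in Alkbh5-deficient fed libraries, against 11.0 ± 0.77 and 8.59 ± 1.14 CPM per kb in WT fed libraries. The ranges of Nop58 and Rrn3 overlapped in both genotypes, those of Rrn3 and Polr1a in WT libraries, and those of Polr1a and Polr1b in neither.

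**Figure D1:**
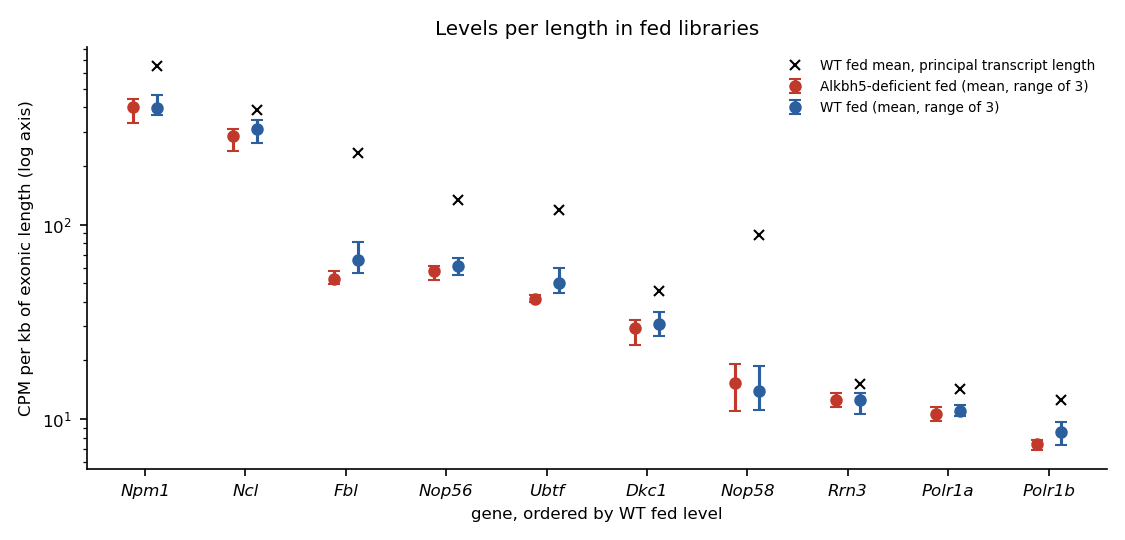
Level of each gene in fed libraries, in CPM per kilobase of exonic length on a log axis, with the mean (point) and range (bar) of 3 Alkbh5-deficient libraries in red and 3 WT libraries in blue. Crosses give the WT fed mean over the principal transcript length instead; by that length Nop58 moves up to 87.8 CPM per kb, above Dkc1 at 45.4 CPM per kb.

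The place of Nop58 depended on the length used. Its annotated exons add up to 10758 bases, whereas its principal transcript has 1713 bases, and over that transcript it was sixth, with 95.6 ± 25.3 CPM per kb in Alkbh5-deficient and 87.8 ± 26.1 CPM per kb in WT fed libraries (SD, n = 3 each). In reads rather than per length, Ncl dominated the set. It took between 54.6% and 58.6% of the counts of the 10 genes in every library, and Npm1 took between 16.9% and 20.9%. The 10 genes together made up between 0.412% and 0.630% of gene counts.

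The 10 genes did not lie on the same side of the unlabelled libraries after s4U feeding. Ubtf and Fbl were higher in every fed library than in both unlabelled libraries, and Nop58 and Rrn3 were lower in every fed library than in both. For the polymerase subunits, Npm1, Ncl, Nop56 and Dkc1, fed and unlabelled libraries overlapped. No gene of the 10 passed an adjusted p of 0.05 in edgeR's quasi-likelihood test with Benjamini-Hochberg adjustment over 14988 genes. That test called 4 genes in all (0.0267%), all higher in fed libraries. Fed and unlabelled libraries were separate for 4 of the 10 genes, where 30.8% of all genes tested were, so the count is near the background. The 2 higher genes stand beside 14.0% of all genes and the 2 lower ones beside 16.8%. Leaving out fed libraries cannot undo a separation, so doing so adds no evidence on these 4 genes. The count stayed at 4 of the 10 without WT fed replicate 3, where the share of all genes was 34.9%. It was also 4 without replicate 1 of both genotypes, where the share was 40.9%. With 1 unlabelled library per genotype, the spread in this test comes mostly from the fed libraries.

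**Figure D2:**
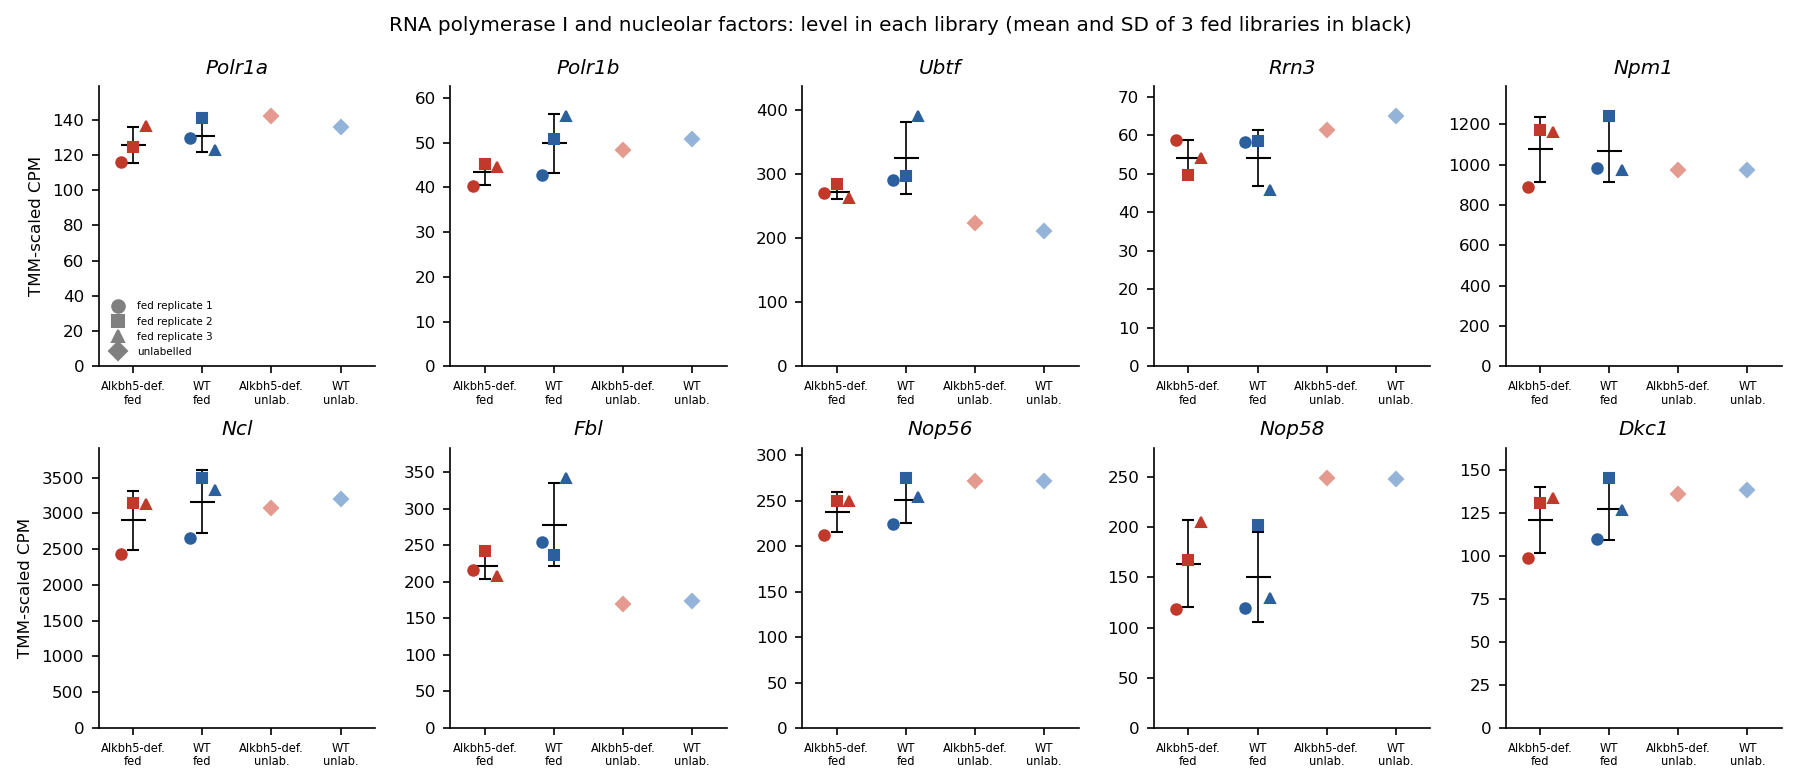
TMM-scaled CPM of each gene in each library, from 0, with Alkbh5-deficient fed, WT fed, Alkbh5-deficient unlabelled and WT unlabelled libraries from left to right in each panel; black lines give the mean and SD of 3 fed libraries, and unlabelled groups are 1 library each. The 2 unlabelled diamonds lie close together in every panel, below all fed libraries for Ubtf and Fbl and above all of them for Rrn3 and Nop58.

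The polymerase subunits overlapped between fed and unlabelled libraries. Polr1a (ENSMUSG00000049553.11, chromosome 6, 71909053 to 71984935, plus strand, GRCm38), which carries the active site, had 116, 124 and 136 CPM in the fed Alkbh5-deficient libraries and 129, 141 and 123 CPM in WT fed libraries, against 142 CPM in the Alkbh5-deficient and 136 CPM in the WT unlabelled library. All CPM values here and below were scaled by TMM factors over the 8 libraries. Of the 6 fed libraries, 4 lay below both unlabelled libraries, and Alkbh5-deficient fed replicate 3 and WT fed replicate 2 lay between them. Polr1b (ENSMUSG00000027395.15, chromosome 2, 129100995 to 129126594, plus strand), which completes the active centre, had 40.2, 45.3 and 44.5 CPM in Alkbh5-deficient fed and 42.8, 50.9 and 55.9 CPM in WT fed libraries, against 48.4 CPM in the Alkbh5-deficient and 50.7 CPM in the WT unlabelled library. WT fed replicates 2 and 3 were above both unlabelled libraries and the other fed libraries below both. The fitted log2 fold changes of fed over unlabelled were -0.10 ± 0.13 for Polr1a and -0.08 ± 0.15 for Polr1b (SE), with 95% intervals of -0.39 to 0.18 and -0.42 to 0.26. In these bulk samples, fewer cells of a type and less RNA per cell cannot be told apart.

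The 2 initiation factors differed in direction. Ubtf (ENSMUSG00000020923.17, chromosome 11, 102304560 to 102319742, minus strand) had 271, 285 and 262 CPM in the fed Alkbh5-deficient libraries and 290.2, 297 and 391 CPM in WT fed libraries, against 224 CPM in the Alkbh5-deficient and 211 CPM in the WT unlabelled library. The 6 fed libraries were all above the 2 unlabelled ones, with WT fed replicate 3 the highest. The log2 fold change of Ubtf was 0.47 ± 0.17 (SE); in edgeR the adjusted p was 0.195 and the unadjusted p 0.0204. Without the WT unlabelled library the log2 fold change of Ubtf was 0.30. Rrn3 (ENSMUSG00000022682.8, chromosome 16, 13780708 to 13814839, plus strand) had 58.6, 49.7 and 54.1 CPM in Alkbh5-deficient fed and 58.2, 58.4 and 45.7 CPM in WT fed libraries, against 61.3 CPM in the Alkbh5-deficient and 64.9 CPM in the WT unlabelled library. Its 6 fed libraries were all below the unlabelled ones, by a small margin in 3 of them. For Rrn3 the log2 fold change was -0.21 ± 0.14 (SE), with a 95% interval of -0.53 to 0.12 and an edgeR adjusted p of 0.447.

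The 2 abundant nucleolar proteins had fed libraries on both sides of the unlabelled pair. Npm1 (ENSMUSG00000057113.13, chromosome 11, 33152287 to 33163206, minus strand), a histone and ribosome chaperone that is often mutated in human myeloid leukaemia, had 890.4, 1173 and 1163 CPM in Alkbh5-deficient fed and 982, 1241 and 972 CPM in WT fed libraries, against 974 CPM in the Alkbh5-deficient and 975 CPM in the WT unlabelled library. Its fed libraries reached further up than down from the unlabelled level. Ncl (ENSMUSG00000026234.12, chromosome 1, 86344719 to 86359400, minus strand), an RNA-binding protein of pre-rRNA processing, had 2428, 3148 and 3133 CPM in Alkbh5-deficient fed and 2663, 3503 and 3330.1 CPM in WT fed libraries, against 3082 CPM in the Alkbh5-deficient and 3208 CPM in the WT unlabelled library. Replicate 1 of each genotype lay well below the others. The log2 fold changes were 0.15 ± 0.17 for Npm1 and -0.04 ± 0.17 for Ncl (SE), with 95% intervals of -0.22 to 0.52 and -0.42 to 0.34.

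The core proteins of 1 particle, the box C/D snoRNP, did not keep to 1 direction. Fbl (ENSMUSG00000046865.7, chromosome 7, 28169710 to 28179269, plus strand), its methyltransferase, had 216, 242 and 208 CPM in the fed Alkbh5-deficient libraries and 255, 236 and 343 CPM in WT fed libraries, against 169 CPM in the Alkbh5-deficient and 174 CPM in the WT unlabelled library. All 6 fed libraries were above both unlabelled ones. For Fbl the log2 fold change was 0.55 ± 0.18 (SE); in edgeR the adjusted p was 0.177 and the unadjusted p 0.0132. Nop58 (ENSMUSG00000026020.9, chromosome 1, 59684971 to 59719044, plus strand), a scaffold protein of the particle, had 119, 168 and 205 CPM in Alkbh5-deficient fed and 120.0, 202 and 129 CPM in WT fed libraries, against 249.6 CPM in the Alkbh5-deficient and 248.5 CPM in the WT unlabelled library. All 6 fed libraries were below both unlabelled ones, and the fed libraries of each genotype were widely spread. For Nop58 the log2 fold change was -0.65 ± 0.23 (SE); in edgeR the adjusted p was 0.188 and the unadjusted p 0.0184. Nop56 (ENSMUSG00000027405.16, chromosome 2, 130274430 to 130279313, plus strand), the partner scaffold of NOP58, had 212, 250.3 and 250.0 CPM in Alkbh5-deficient fed and 224, 276 and 254 CPM in WT fed libraries, against 272.3 CPM in the Alkbh5-deficient and 271.7 CPM in the WT unlabelled library. WT fed replicate 2 alone lay above the unlabelled pair, and the log2 fold change of Nop56 was -0.14 ± 0.14 (SE), with a 95% interval of -0.45 to 0.17.

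Ratios of counts within the C/D particle need no scaling between libraries. The count of Fbl per count of Nop58 was between 1.02 and 2.65 in the fed libraries, against 0.68 in the Alkbh5-deficient and 0.70 in the WT unlabelled library. The count of Nop56 per count of Nop58 was between 1.22 and 1.96 in fed libraries and 1.09 in both unlabelled ones. Neither ratio overlapped between fed and unlabelled libraries. Both ratios rest on Nop58 as their denominator and add no evidence independent of its level.

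Dkc1 (ENSMUSG00000031403.14, chromosome X, 75095854 to 75109777, plus strand), the pseudouridine synthase of H/ACA particles and of telomerase, had 98.5, 131 and 134 CPM in Alkbh5-deficient fed and 109.7, 146 and 127 CPM in WT fed libraries, against 136 CPM in the Alkbh5-deficient and 138 CPM in the WT unlabelled library. Only WT fed replicate 2 exceeded the unlabelled pair, and replicate 1 was lowest in each genotype. The log2 fold change of Dkc1 was -0.13 ± 0.16 (SE), with a 95% interval of -0.49 to 0.24.

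At an unadjusted p under 0.05, edgeR gave Ubtf, Fbl and Nop58, 3 of the 10 genes, where 19.6% of all genes had one. DESeq2 called 557 of 8921 genes with an adjusted p (6.24%) and none of the 10, with adjusted p of 0.0609 for Fbl, 0.0827 for Ubtf and 0.0972 for Nop58. Within the Alkbh5-deficient libraries the log2 fold changes were 0.32 for Ubtf, 0.43 for Fbl and -0.57 for Nop58, and within the WT libraries 0.63, 0.68 and -0.72 in the same order of genes. For these 3 genes every fed library lay on the same side of both unlabelled libraries. The sign within each genotype was thus fixed and adds no evidence. Log2 fold changes were below 0 for 7 of the 10 genes, against 47.9% of all genes tested, with a median of -0.09 over the 10 genes and 0.03 over all genes.

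**Figure D3:**
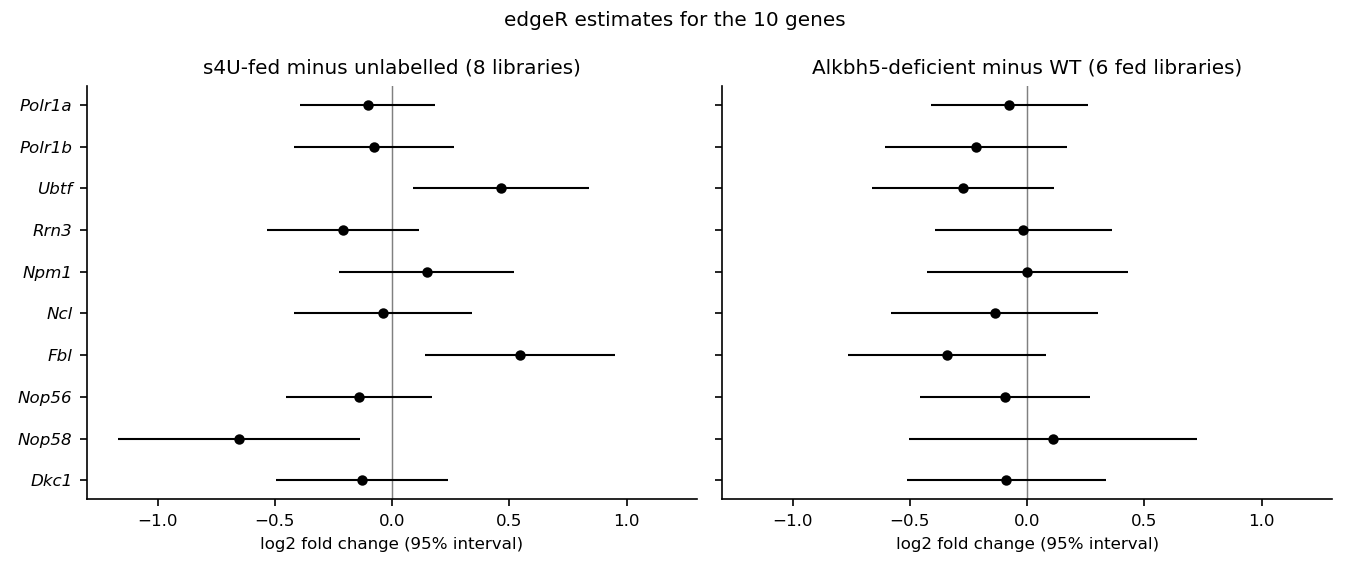
Log2 fold change of each gene from edgeR (point) with its 95% interval (bar), for fed minus unlabelled libraries on the left and Alkbh5-deficient minus WT fed libraries on the right. On the left the intervals of Ubtf (0.09 to 0.84), Fbl (0.14 to 0.95) and Nop58 (-1.17 to -0.14) leave out 0 before adjustment for the number of genes; on the right every interval includes 0.

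The genes with the largest fed differences also stood at the ends of the set in base composition. By the GC content of the longest annotated transcript, Ubtf was highest of the 10 at 54.1%, Fbl next at 52.05%, and Nop58 lowest at 41.0%. For Nop58 that transcript has 9507 bases, against 1713 bases in its principal transcript, so the value may not describe its main RNA. After a GC correction fitted over all genes, the log2 fold changes of fed over unlabelled were 0.27 for Ubtf, 0.42 for Fbl and -0.24 for Nop58, and that of Npm1, with 42.4% GC, was 0.49 in place of 0.15. A correction for exonic length gave 0.60 for Ubtf, 0.60 for Fbl and -0.42 for Nop58. No gene of the 10 was called under either correction. Neutrophil marker RNA was higher in every fed library than in both unlabelled ones: the summed level of 10 markers, all detected in every library, was between 6882 and 13104 CPM in fed libraries, against 6009 CPM in the Alkbh5-deficient and 5090.5 CPM in the WT unlabelled library. The summed mast cell, basophil and eosinophil markers were separate too, between 742 and 1712 CPM in fed libraries, against 518 CPM in the Alkbh5-deficient and 606 CPM in the WT unlabelled library, with 2 of 10 markers at 0 in at least 1 library. Summed megakaryocyte markers were between 144 and 376 CPM in fed libraries, against 137 CPM in the Alkbh5-deficient and 131 CPM in the WT unlabelled library, with 2 of 8 markers at 0 in at least 1 library. The highest of these sums was that of WT fed replicate 3. Of the 6 megakaryocyte markers tested, 3 had log2 fold changes of fed over unlabelled below 0, so the sum does not stand for the whole list. The part of base composition, of length or of these cell types in the differences was not tested.

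The promoter windows of Rrn3 and Nop58 are shown because both genes were lower in every fed library than in the unlabelled ones. Each window runs from 250 bases before to 50 bases after the RefSeq start of the gene (GRCm38.p6), 5′ to 3′ on the gene's strand, plus in both cases. Capitals mark the E-box CACGTG, the GC-box GGGCGG and the ETS motif CCGGAAGT, on either strand, and in Rrn3 the last capitals join an ETS motif and a GC-box that overlap.
Rrn3, chr16:13780449-13780748: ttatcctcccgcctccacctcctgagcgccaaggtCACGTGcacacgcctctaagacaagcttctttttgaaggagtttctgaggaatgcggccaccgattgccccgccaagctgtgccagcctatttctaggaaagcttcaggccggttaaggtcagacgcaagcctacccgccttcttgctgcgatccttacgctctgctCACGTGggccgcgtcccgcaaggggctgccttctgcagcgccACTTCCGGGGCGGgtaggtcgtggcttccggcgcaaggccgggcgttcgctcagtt
Nop58, chr1:59684756-59685055: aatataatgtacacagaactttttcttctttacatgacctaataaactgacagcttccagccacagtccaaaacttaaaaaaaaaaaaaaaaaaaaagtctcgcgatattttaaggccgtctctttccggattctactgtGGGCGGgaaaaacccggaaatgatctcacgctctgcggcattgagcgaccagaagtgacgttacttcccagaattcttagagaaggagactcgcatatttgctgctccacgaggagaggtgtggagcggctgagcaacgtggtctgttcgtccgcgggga
The window of Rrn3 held 2 E-boxes, a motif present at least once in 7.15% of the 32851 RefSeq mouse windows, 1 ETS motif, which 3.89% hold, and 1 GC-box, which 35.7% hold. The window of Nop58 held 1 GC-box and none of the others. Windows were found for 8 of the 10 genes, 13 windows in all with 6 of Ubtf, and 10 of the 13 held a GC-box. The NRF1 and YY1 motifs, present in 0.971% and 0.852% of all windows, matched none of the 13. These matches describe the letters only.

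No difference between genotypes was called for any of the 10 genes. None passed an adjusted p of 0.05 in edgeR over the 6 fed libraries and 13342 genes, where 1 gene was called (0.00750%), Alkbh5 itself. Fbl and Ubtf had the lowest p of the 10. Fbl averaged 222 ± 17.7 CPM in the fed Alkbh5-deficient libraries and 278 ± 56.8 CPM in WT fed libraries (SD, n = 3 each), and Ubtf averaged 273 ± 11.3 CPM in Alkbh5-deficient and 326 ± 56.2 CPM in WT fed libraries. The log2 fold change of Fbl was -0.34 ± 0.18 (SE), with an unadjusted p of 0.101 and an adjusted p of 1.00 in edgeR. That of Ubtf was -0.27 ± 0.17 (SE), with an unadjusted p of 0.142 and an adjusted p of 1.00 in edgeR.

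Ubtf was the 1 gene of the 10 whose fed groups did not overlap, all 3 Alkbh5-deficient libraries being lower, where 5.59% of all genes tested were separate in either direction and 2.92% in that one. The separation was narrow, at 285 CPM in the highest Alkbh5-deficient and 290.2 CPM in the lowest WT library. Without WT fed replicate 3 the log2 fold changes were -0.10 for Ubtf, -0.14 for Fbl and -0.11 for Polr1b, each over 1.5 times smaller in size. By replicate number, the log2 ratios of Alkbh5-deficient to WT were -0.10, -0.06 and -0.58 for Ubtf and -0.24, 0.03 and -0.72 for Fbl. WT fed replicate 3 was also the library with the highest share of ribosomal-repeat counts and the highest summed stromal and endothelial markers, at 2003 CPM against 107 to 725 CPM in the other 7 libraries, with 8 of 8 markers detected and Col3a1 at 0 in WT fed replicate 1. The part of either in these levels was not tested.

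The polymerase subunits averaged 126 ± 10.1 CPM for Polr1a and 43.3 ± 2.73 CPM for Polr1b in Alkbh5-deficient fed libraries, against 131 ± 9.16 and 49.9 ± 6.62 CPM in WT fed libraries (SD, n = 3 each). Their log2 fold changes were -0.08 ± 0.15 and -0.22 ± 0.17 (SE), and Rrn3 differed by -0.02 ± 0.16. Of the nucleolar proteins, Npm1 averaged 1075 ± 160.3 CPM in Alkbh5-deficient and 1065 ± 152 CPM in WT fed libraries, and Ncl averaged 2903 ± 411 CPM in Alkbh5-deficient and 3165 ± 443 CPM in WT fed libraries. The log2 fold change was 0.00 ± 0.19 for Npm1, the closest to 0 of the set, and -0.14 ± 0.19 for Ncl (SE). The remaining snoRNP genes also differed by less than their spread, with -0.10 ± 0.16 for Nop56, 0.11 ± 0.27 for Nop58 and -0.09 ± 0.19 for Dkc1 (SE). The 95% intervals ran from -0.76 to 0.08 for Fbl and from -0.50 to 0.72 for Nop58, so moderate differences of either gene would not have been detectable with 3 libraries a group. Log2 fold changes were below 0 for 8 of the 10 genes, against 49.8% of all genes tested. The edgeR test gave an unadjusted p under 0.05 to none of the 10 and to 1.13% of all genes, and DESeq2 called none of the 10 and 2 of 24907 genes (0.00803%).

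Without feeding, where each genotype has 1 library and no test was run, the levels of the 10 genes lay close together. The Alkbh5-deficient level was between 94.4% and 106% of the WT level for the 10 genes. Ncl, the most deeply counted, had 27849 counts in the Alkbh5-deficient and 24855 counts in the WT library, a ratio of 96.0% after scaling, with an exact 95% interval of 94.4% to 97.7% for counting error only. It was the 1 gene whose interval left out equality. Nop58, which had the widest fed spread, stood at 100.5% with an interval of 94.5% to 107%. Whether the response to feeding differed by genotype was tested with the interaction term over 8 libraries. edgeR called 0 of 14988 genes (0.00%), with 24 genes at an unadjusted p under 0.05 and none of the 10 among them, and DESeq2 called 0. The lowest p of the 10 was that of Ubtf, with a log2 interaction of -0.33 ± 0.35 (SE), a 95% interval of -1.12 to 0.46, an unadjusted p of 0.366 and an edgeR adjusted p of 1.00. Without WT fed replicate 3 the interaction of Ubtf was -0.15.

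Much of the spread of these genes ran along libraries rather than groups. Alkbh5-deficient fed replicate 1 held the lowest value of the 6 fed libraries for 7 of the 10 genes, and replicate 1 was lowest in both genotypes for Polr1b, Ncl, Nop56, Nop58 and Dkc1. WT fed replicate 2, the WT fed library with Xist and no Ddx3y counts, held the highest value for 5 of the 10. The part of sex in this was not tested. The deviation of log2(CPM + 1) from each gene's mean over 8 libraries had a median over the 10 genes of -0.22 in Alkbh5-deficient fed replicate 1 and -0.11 in WT fed replicate 1, against 0.13 in WT fed replicate 2. All 10 genes were above their own mean in WT fed replicate 2. The replicate 1 libraries had the highest summed neutrophil markers, at 12125 CPM in the Alkbh5-deficient and 13104 CPM in the WT library, against 5090.5 to 8089 CPM in the other 6. Their monocyte and macrophage markers were also highest, at 6230.4 CPM in the Alkbh5-deficient and 5285 CPM in the WT library, against 2120.4 to 3207 CPM, with all 10 markers of each list detected in every library. Their summed stromal and endothelial markers were lowest, at 109 CPM in the Alkbh5-deficient and 107 CPM in the WT library, against 394 to 2003 CPM in the others. So were their erythroid markers, at 259.6 CPM in the Alkbh5-deficient and 260.3 CPM in the WT library, against 379 to 571 CPM, with 10 of 10 detected in every library. Summed stem and progenitor markers, also 10 of 10 detected, ranged only from 1026 to 1269 CPM over the 8 libraries. The part of cell makeup in the levels of the 10 genes was not tested.

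**Figure D4:**
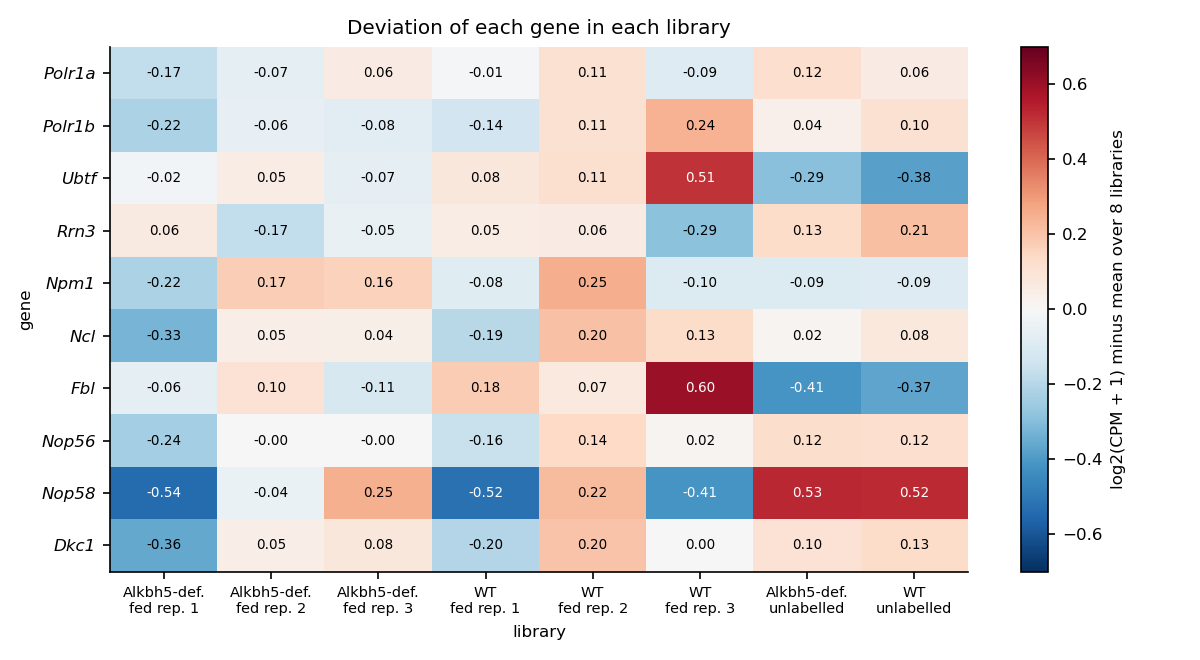
Deviation of log2(CPM + 1) from each gene's mean over the 8 libraries, genes down and libraries across, red above and blue below the mean, with each value printed in its cell. Alkbh5-deficient fed replicate 1 is below the mean for 9 of 10 genes, WT fed replicate 2 for 0 of 10, and the strongest cells are Fbl at 0.60 in WT fed replicate 3 and Nop58 at -0.54 in Alkbh5-deficient fed replicate 1.

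Some reads of these genes are shared with RNAs that lie inside them or copy them. Nop56 and Ncl host box C/D snoRNAs in their introns, RNAs of the class that the FBL, NOP56 and NOP58 proteins package. Their sequences (GENCODE M21, GRCm38) are shown because reads over them can leave the count of the host. Lower case is the RNA, 5′ to 3′ in DNA letters, and capitals mark the first GATG and the last CTGA, the letters of the C and D boxes that name the class.
Gm23650 in Nop56, chr2:130277697-130277766, plus strand: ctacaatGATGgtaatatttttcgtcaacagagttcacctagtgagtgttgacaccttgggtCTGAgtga
Snord57 in Nop56, chr2:130278016-130278087, plus strand: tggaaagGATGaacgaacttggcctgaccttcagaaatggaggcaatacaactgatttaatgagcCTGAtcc
Snord82 in Ncl, chr1:86356261-86356330, minus strand: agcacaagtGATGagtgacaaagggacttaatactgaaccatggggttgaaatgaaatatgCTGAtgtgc
Reads assigned to both Nop56 and Gm23650 came to 852 over the 8 libraries and those to both Nop56 and Snord57 to 170, and such reads are in no gene's count. All reads that Nop56 shared with hosted RNAs were 4.76% of its own count in Alkbh5-deficient fed replicate 1 and 3.02% in WT fed replicate 1, against 6.05% to 9.05% in the other libraries. The replicate 1 libraries were thus again the lowest pair. Snord82 has counts of its own, with 18, 40 and 37 in Alkbh5-deficient fed and 19, 38 and 28 in WT fed libraries, against 51 in the Alkbh5-deficient and 42 in the WT unlabelled library. After scaling, Alkbh5-deficient fed replicate 2 lay between the unlabelled libraries and the other fed libraries below both, and its log2 fold change of fed over unlabelled was -0.36 ± 0.33 (SE; adjusted p 0.578 in edgeR). No other snoRNA inside the 10 genes had a mean of 10 counts. Of these only Snord110 in Nop56, with a mean of 6.5 counts, passed the low-count filter of the test, and its log2 fold change of fed over unlabelled was -0.10 ± 0.93 (SE; adjusted p 0.965 in edgeR).

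Processed pseudogenes, spliced copies inserted elsewhere, mattered most for Npm1. Copies with 90% identity or more took reads that came to between 9.90% and 12.4% of the Npm1 count, led by Gm9118 on chromosome 10 (56497341 to 56498094) with 97.3% identity, Gm6477 on chromosome 10 and Gm14681 on chromosome X. For Nop56 the share was between 2.40% and 4.41%, mostly in Gm27219, and for Fbl between 1.47% and 2.65%, nearly all in Gm5812. Such reads may belong to either copy, so the level of Npm1 is uncertain by about that share. Gm5812 had 21, 46 and 43 counts in Alkbh5-deficient fed and 30, 30 and 35 counts in WT fed libraries, against 25 counts in the Alkbh5-deficient and 21 counts in the WT unlabelled library, with a log2 fold change of fed over unlabelled of 0.87 ± 0.38 (SE) and an edgeR adjusted p of 0.252. Its estimate had the sign of that of its parent Fbl, but copies did not all do so. Gm27219 was at 0.10 against -0.14 for its parent Nop56, and Gm14681 at -0.09 against 0.15 for its parent Npm1. The other tested copies of Npm1 had its sign, with Gm9118 at 0.25, Gm6477 at 0.05, Gm15484 at 0.23 and Gm5611 at 0.09. At their ends, Nop56 overlaps Idh3b and Dkc1 overlaps Mpp1 on the opposite strand, and Gm26628 lies antisense within Polr1a with at most 3 counts. Whether the counting used strand is not stated in the material used, so reads at these overlaps may belong to either gene.

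Across the wider pathway, fed libraries differed from unlabelled ones in single genes on both sides. By edgeR no gene was called in any of the 10 lists of ribosome production and of the other RNA polymerases, so the genes named are those with the lowest p of each list, given as values. Of the other RNA polymerase I subunits, 11 were tested with a median log2 fold change of 0.04, against 0.03 over all genes. Twistnb, a stalk subunit, averaged 59.8 ± 8.01 CPM in Alkbh5-deficient fed and 56.3 ± 10.5 CPM in WT fed libraries (SD, n = 3 each), against 83.2 CPM in the Alkbh5-deficient and 87.3 CPM in the WT unlabelled library, and its log2 fold change was -0.54 ± 0.16 (SE). Polr1d, a subunit shared with RNA polymerase III, differed by 0.42 ± 0.18. Among 8 RNA polymerase I cofactors the median was -0.23, with Top1, a topoisomerase, at -0.57 ± 0.22 and Tbp, the TATA-binding protein, at -0.47 ± 0.20. Of 14 regulators of ribosomal DNA the median was -0.02, with the repressor Rb1 at -0.56 ± 0.18 and the chromatin protein Hmgb1 at 0.46 ± 0.17.

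Among the factors that work on the precursor, more genes were lower than higher in fed libraries at an unadjusted p under 0.05. Small-subunit processing had 46 genes tested, of which 0 were higher and 14 lower at an unadjusted edgeR p under 0.05, where 9.53% of all genes were higher and 10.0% lower, and the list median was -0.07. Large-subunit processing had 54 genes tested, 2 higher and 11 lower by the same rule, with a median of 0.02. DESeq2 called 2 genes of the small-subunit list and 4 of the large-subunit list, all lower in fed libraries, where it called 2.81% of all genes lower and 3.43% higher. Nmd3, the adaptor for nuclear export of the large subunit, averaged 36.8 ± 7.45 CPM in Alkbh5-deficient fed and 28.7 ± 8.95 CPM in WT fed libraries (SD, n = 3 each), against 70.9 CPM in the Alkbh5-deficient and 69.3 CPM in the WT unlabelled library. The log2 fold change of Nmd3 was -1.10 ± 0.22 (SE); its adjusted p was 0.165 in edgeR and 0.00801 in DESeq2. Tex10, of the same list, differed by -0.85 ± 0.19, with a DESeq2 adjusted p of 0.0174. In the small-subunit list Riok2, a kinase of the late particle, differed by -0.60 ± 0.14, with a DESeq2 adjusted p of 0.0225, and Dimt1, an rRNA dimethyltransferase, by -0.91 ± 0.25. All 6 fed libraries were below both unlabelled ones for Nmd3, Tex10, Riok2 and Dimt1, as they were for 16.8% of all genes tested. These genes were picked by their low p in the same contrast, so the separation adds no evidence.

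The snoRNP assembly list, of 15 genes tested, had a median of -0.02 with 3 genes higher and 3 lower at an unadjusted edgeR p under 0.05. Pih1d1, of the R2TP chaperone that loads NOP58, differed by 0.67 ± 0.20 (SE), with an adjusted p of 0.167 in edgeR and 0.0477 in DESeq2. Nhp2, a partner of dyskerin in the H/ACA particle, differed by 0.42 ± 0.13. Of 17 rRNA exonucleases and cofactors, 13 had log2 fold changes below 0, against 47.9% of all genes tested, and the median was -0.18. Rexo5 was at -0.64 ± 0.19 and the exosome helicase Mtrex at -0.56 ± 0.17. Of 13 genes of nucleolar stress and p53, 2 were below 0 and the median was 0.18, with Nop53 at 0.63 ± 0.21 and Rpl11, which binds MDM2, at 0.52 ± 0.18. Of 22 RNA polymerase III subunits and factors the median was -0.0029, with Gtf3a, which directs that polymerase to the gene of the smallest ribosomal RNA, at 0.82 ± 0.18 and a DESeq2 adjusted p of 0.0122, and Gtf3c3 at -0.59 ± 0.17. The 8 RNA polymerase II subunits had a median of 0.15, with Polr2a at 0.21 ± 0.19 and Polr2i at 0.23 ± 0.22. Npm3, the relative of Npm1, differed by 0.42 ± 0.23.

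**Figure D5:**
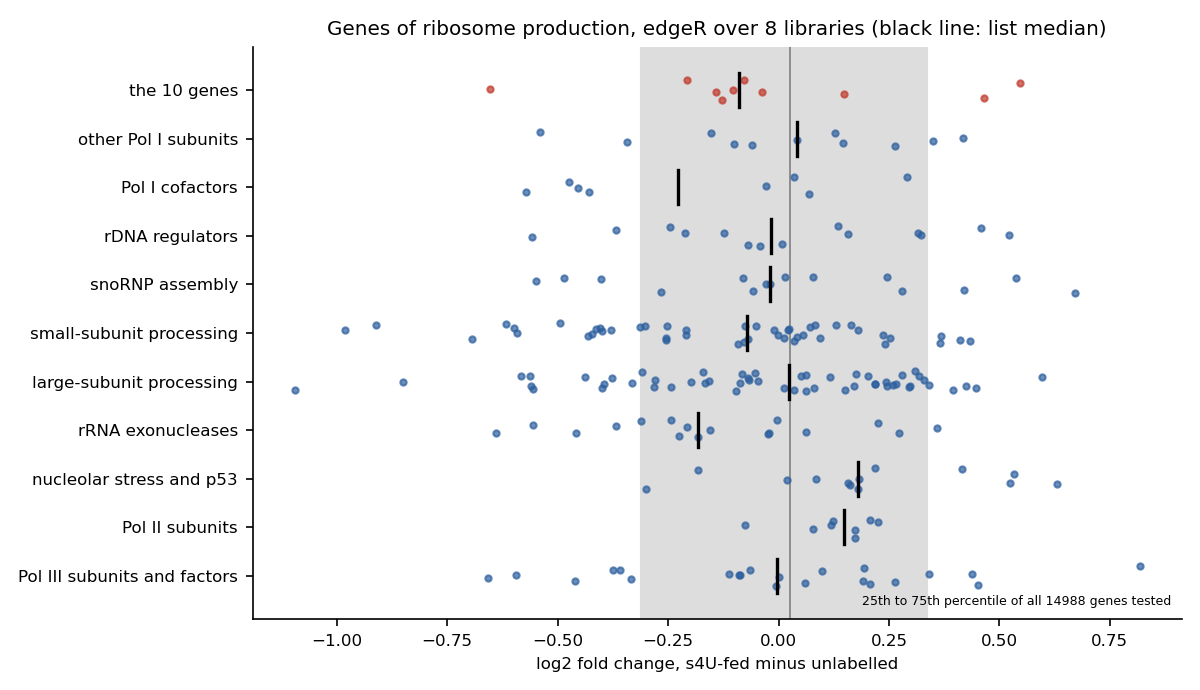
Log2 fold change of fed minus unlabelled libraries from edgeR for each gene of the named lists, with the 10 genes in red at the top, a black line at each list's median, the grey band from the 25th to the 75th percentile of all 14988 genes tested and the grey line at their median of 0.03. Fbl and Ubtf lie right of the band, Nop58 lies left of it, and the other 7 genes lie inside it.

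Between genotypes, edgeR called none of the 207 genes of these lists that were tested in fed libraries, and 1 of them (0.483%) had an unadjusted p under 0.05, against 1.13% of all genes, so the count is not above the background. That was Ddx56, an RNA helicase of the large-subunit pathway, with 30.6, 32.6 and 29.7 CPM in Alkbh5-deficient fed libraries against 41.3, 42.4 and 50.6 CPM in WT fed libraries. The groups did not overlap, and the log2 fold change was -0.55 ± 0.17 (SE), with an unadjusted p of 0.0105 and an adjusted p of 1.00 in edgeR. Of all genes tested, 2.92% had fed groups that were separate with the Alkbh5-deficient one lower. Of the 54 large-subunit genes, 38 were below 0, against 49.8% of all genes tested, with a median of -0.12 and Nle1 at -0.40 ± 0.21. Of the 15 snoRNP assembly genes, 14 were below 0, beside the same 49.8% of all genes, with a median of -0.06. Ruvbl2 was at -0.28 ± 0.19 and Naf1 at -0.28 ± 0.20. The medians of the other lists were -0.09 for RNA polymerase I subunits, 0.11 for its cofactors, -0.04 for regulators of ribosomal DNA, -0.04 for small-subunit processing, 0.01 for exonucleases, -0.11 for nucleolar stress and p53, -0.01 for RNA polymerase III and 0.05 for RNA polymerase II, against 0.00 over all genes. Among the genes with the lowest p in those lists were Polr1c at -0.32 ± 0.18, Taf1c at -0.39 ± 0.26, Mycn at -0.50 ± 0.35 and Nol6 at -0.34 ± 0.20. Picked by the same rule, Top1 at 0.25 ± 0.25, Hmgb1 at 0.20 ± 0.18, Polr2b at 0.17 ± 0.19 and Polr2m at 0.11 ± 0.18 were above 0. The other genes so picked were below 0, and none passed the test. For Polr1c, Taf1c, Mycn, Nol6, Ruvbl2, Naf1, Nle1 and Ddx56, the highest fed library was WT fed replicate 3, the library that stood apart above. Taf1c, for example, had 19.8, 18.8 and 33.7 CPM in WT fed libraries. For the interaction of genotype and s4U, no list had a gene called or at an unadjusted p under 0.05.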

How the data were processed

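Each deposited table holds whole-number read counts per gene of 1 library, not normalized by the authors. The submitters' processing notes name the builds mm10 and GRCm38 and the tools HTSeq, HISAT2, STAR, cutadapt, Picard and DESeq2, without roles, versions or a strand setting. The 928 entries that name no gene (reads in no gene made up 37.6% to 52.1% of counts) were left out of totals and fits. The test was edgeR's quasi-likelihood F-test (edgeR 4.0.16, R 4.3.3; TMM, filterByExpr, robust fit), with Benjamini-Hochberg adjustment over all genes tested and a threshold of 0.05. The s4U contrast used 8 libraries with genotype as a covariate, the genotype contrast the 6 fed libraries, and the interaction 8 libraries. The standard error is the log2 fold change over the root of F. The tests were run on simulated data first.

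Symbols of 27070 genes matched GENCODE M21, which gave coordinates, lengths and the GC content of each gene's longest transcript. Promoter windows are from RefSeq. Pseudogenes were aligned to transcripts with BLAST+ 2.17.0 at 90% identity over 50% of the copy. Alternatives were RLE size factors, no filter, a filter of 1 CPM, DESeq2 1.42.0, a threshold of 0.1, removal of repeat genes, sums with pseudogenes, lowess corrections for GC or length (span 0.3), each library left out, fits within a genotype, an additive fit and the replicate block. Removal of replicate 1 of both genotypes, non-overlap without single libraries and the principal transcript length were added after seeing the data.

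The 10 genes and all gene lists were chosen with earlier results of these data known. The text names the 10 genes in each contrast and, for other lists, genes with the lowest p. Pairing by the replicate number of the labels was checked from each library's deviations from its group mean: over all genes, the 2 libraries of a number correlated with r = 0.71, 0.26 and 0.18 for numbers 1, 2 and 3, so the numbers were taken to pair libraries. By correlation, numbers 2 and 3 are less sure. Alkbh5-deficient replicate 3 with WT replicate 2 gave r = 0.39, and Alkbh5-deficient replicate 2 with WT replicate 3 gave 0.38. Over the 10 genes alone the same-number r was 0.76, -0.018 and -0.64. The sex-linked RNAs matched by number, with Xist at 13896 counts in Alkbh5-deficient and 17471 counts in WT fed replicate 2. Xist had at most 2 counts in the other fed libraries, so the mixed pairs did not match in it. No 2 libraries agreed within sampling noise, the smallest chi-square statistic per gene being 3.12. Intervals of the unlabelled pair cover counting error only. Those of log2 fold changes come from the edgeR standard error and include the spread between libraries.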

Additional observations from a re-analysis of the deposited data

How the results depend on the processing

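No gene of the 10 was called under any alternative in any contrast, and direction held for 181 of 190 values of the s4U contrast, 171 of 190 of the genotype contrast and 126 of 140 of the interaction; Ubtf and Fbl kept the sign of every value in all 3. The number of genes called for s4U, 4 in the main analysis, was 37 without a low-count filter, 557 with DESeq2, 0 with the length correction, 0 with the GC correction, 0 within either genotype, 1 without replicate 1 of both genotypes and 0 to 2 with each library left out. It was 0 without Alkbh5-deficient fed replicate 3, without WT fed replicate 3 and without each unlabelled library. For genotype, 1 in the main analysis, it was 2 without a filter, 2 with DESeq2, and 2 with the replicate block and GC correction. With the replicate block alone, the pairing by number gave 1 call, and the block changed no call of the 10 genes.

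The largest log2 fold change that turned its sign was 0.28, for Ncl in the s4U contrast with the GC correction, against -0.04 in the main analysis. For s4U, the length correction gave 0.17 for Polr1a, 0.031 for Polr1b and 0.19 for Ncl, the GC correction 0.28 for Ncl and 0.14 for Dkc1, and removal of replicate 1 of both genotypes 0.0041 for Polr1b and 0.081 for Ncl. For genotype, Npm1 was -1.3e-05 with the 1 CPM filter, -0.0046 summed with its pseudogenes, -0.15 with the GC correction, -0.0037 with the replicate block, -0.15 with the block and GC correction and -0.0034 in the additive fit, and Nop58 was -0.065 with the GC correction and -0.071 with the block and GC correction. For the interaction, the GC correction gave -0.11 for Npm1 and -0.040 for Nop58. With each library left out, the s4U value of Ncl ran from -0.071 to 0.020. The genotype values ran from -0.11 to 0.039 for Rrn3, -0.069 to 0.13 for Npm1, -0.095 to 0.37 for Nop58 and -0.19 to 0.047 for Dkc1. The interaction values ran from -0.22 to 0.0046 for Polr1b, -0.028 to 0.16 for Npm1, -0.16 to 0.067 for Ncl, -0.14 to 0.011 for Nop56, -0.062 to 0.39 for Nop58 and -0.13 to 0.099 for Dkc1. The cause was not tested. The interaction could not be fitted without an unlabelled library. The limits are 1 unlabelled library per genotype, 3 fed libraries a group and the 241 to 554 counts behind Rrn3 and Polr1b.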
